A study of Mus musculus with 24 samples.

Results

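The 34 genes described here code for the proteins that take up glucose, break it down to lactate and respond to low oxygen, measured in cultures of osteoblasts, the bone-forming cells, of the mouse. They were chosen by name, as the rows of the deposited count table whose Ensembl identifier belongs to 1 of 34 gene symbols, out of 54232 rows in all. Bulk RNA-seq of polyadenylated RNA had been done on cultures of newborn skull bone (calvarial) cells pooled from several animals, of wild-type (WT) mice or of a high bone mass (HBM) line whose genetic change the labels do not name. Each genotype was sampled on day 0 of osteoblast differentiation and on days 10, 15 and 21. Each genotype and day has 1 library of batch 18, 1 of batch 19 and 1 of batch 21 in the labels, which gives 24 libraries in 8 groups of 3. Equal batch numbers on different days were read as the same culture sampled again, which the labels do not state. A culture grown from calvaria is a mixture of cells, and in bulk RNA a smaller number of cells of a type cannot be told apart from less RNA per cell.

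Glycolysis turns glucose into pyruvate. Glucose enters the cell through transporters of the Slc2a family, is phosphorylated by hexokinases, is committed to breakdown by the phosphofructokinases and leaves the last step, pyruvate kinase, as pyruvate, which lactate dehydrogenase can convert to lactate for export by the Slc16a transporters. Osteoblasts are known as cells that take up much glucose and release much of it as lactate. The transcription factor HIF-1, whose oxygen-regulated subunit is encoded by Hif1a, raises many of these genes when oxygen is low. The prolyl hydroxylases encoded by Egln1 and Egln3 mark that subunit for destruction when oxygen is present, and HIF-1 binds DNA at a short motif with the core ACGTG, the hypoxia response element.

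RefSeq promoter sequences of the mouse build GRCm38.p6 were used for 31 of the 34 genes. In the 250 bases before each start, the core ACGTG on either strand (read as ACGTG or CACGT, and counted on both strands where they overlap in CACGTG) was present in 21 of 45 promoters of these genes, or 46.7%, against 16.6% of 32817 mouse promoters. At least 2 matches were present in 22.2% of the promoters of these genes and in 6.81% of all. The promoters of these genes were also richer in G and C, with a median of 60.4% against 52.4%. Of the 31 genes, 18 had a match in at least 1 promoter. A match describes these letters and is not evidence of binding. The promoters shown are those of the lactate dehydrogenase pair and of genes that recur in the comparisons, with capitals marking each match and each sequence written 5′ to 3′ on the strand of its gene.
Ldha, main subunit of lactate dehydrogenase, plus strand, chr7:46845554-46845803: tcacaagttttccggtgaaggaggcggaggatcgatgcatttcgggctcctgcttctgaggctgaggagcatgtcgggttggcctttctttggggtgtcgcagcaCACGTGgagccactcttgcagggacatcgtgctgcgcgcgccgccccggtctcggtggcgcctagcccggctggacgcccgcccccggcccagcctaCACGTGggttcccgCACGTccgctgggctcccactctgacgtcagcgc
Ldhb, the other subunit, minus strand, chr6:142507958-142508207: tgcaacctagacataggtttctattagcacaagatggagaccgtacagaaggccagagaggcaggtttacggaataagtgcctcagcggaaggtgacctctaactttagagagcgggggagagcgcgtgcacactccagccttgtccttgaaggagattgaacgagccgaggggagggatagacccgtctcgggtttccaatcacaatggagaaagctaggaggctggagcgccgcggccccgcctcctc
Pgk1, phosphoglycerate kinase, plus strand, chrX:106186850-106187099: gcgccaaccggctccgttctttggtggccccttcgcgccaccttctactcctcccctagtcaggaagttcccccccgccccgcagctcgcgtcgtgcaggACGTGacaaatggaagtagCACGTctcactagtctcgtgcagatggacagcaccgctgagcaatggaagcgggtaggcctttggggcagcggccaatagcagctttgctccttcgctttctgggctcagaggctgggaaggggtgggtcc
Slc16a3, lactate exporter, plus strand, chr11:120948817-120949066: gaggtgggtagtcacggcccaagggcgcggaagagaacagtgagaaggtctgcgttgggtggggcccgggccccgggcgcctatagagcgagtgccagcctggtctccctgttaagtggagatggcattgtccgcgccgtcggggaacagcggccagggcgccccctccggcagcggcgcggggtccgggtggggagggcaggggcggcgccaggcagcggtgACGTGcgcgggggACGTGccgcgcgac
Egln3, oxygen-sensing hydroxylase, minus strand, chr12:54203875-54204124: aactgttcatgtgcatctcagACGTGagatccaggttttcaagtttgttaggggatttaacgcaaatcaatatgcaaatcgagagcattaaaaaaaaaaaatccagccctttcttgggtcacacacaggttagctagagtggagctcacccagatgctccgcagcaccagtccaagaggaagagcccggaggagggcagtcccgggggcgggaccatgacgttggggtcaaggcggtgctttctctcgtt
Ankrd37, ankyrin-repeat protein induced by hypoxia, minus strand, chr8:45999851-46000100: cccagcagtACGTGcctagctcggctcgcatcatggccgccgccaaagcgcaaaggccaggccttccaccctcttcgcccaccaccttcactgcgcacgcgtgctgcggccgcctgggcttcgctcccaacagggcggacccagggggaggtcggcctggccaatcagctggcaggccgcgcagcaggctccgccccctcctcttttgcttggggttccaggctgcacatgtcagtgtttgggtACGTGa
The Ldha promoter held 5 matches and that of Ldhb held 0. Slc16a3, Pgk1 and Ankrd37 had 2 each, and Egln3 had 1. Of the Slc16a3 window 14 bases, and of the Ankrd37 window 17 bases, lay in an exon annotated by GENCODE M21, and the other windows shown lay outside annotated exons.

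Column totals of the count table ran from 28039095 to 46987734. All 34 genes passed edgeR's filter on low counts, which kept 16592 genes. Levels below are CPM, counts as a rate of the library total after scaling by the trimmed mean of M values, and values in 3 libraries are given in the order of batches 18, 19 and 21. A gene was called changed at a Benjamini-Hochberg adjusted p under 0.05 over all genes tested, by edgeR's quasi-likelihood test in a model of the 8 groups. All 6 osteoblast markers were detected in every library, with a summed level of 18200 to 34800 CPM on day 0 and 22700 to 116000 CPM later. Col1a1, at 18000 to 111000 CPM, made up most of these sums. The lowest levels of Alpl, Bglap and Ibsp were 0.441, 0.0519 and 0.136 CPM. Batch 19 stood apart. On day 0 its cartilage markers summed to 16700 CPM in WT and 9020 in HBM, against 858 to 4090 in the other cultures. The female-specific RNA Xist was at 18 to 41.7 CPM in the WT and 177 to 246 CPM in the HBM libraries of batch 19. It was at 279 to 528 CPM in batch 18 and at most 0.0328 CPM in batch 21. Only in batch 19 did the 2 genotypes not overlap in Xist. The part of sex in the differences within that batch was not tested. For the 34 genes, results that rest on batch 19 are given with and without it.

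Genes of glucose breakdown were among those that fell between day 0 and day 10, more of them in WT than in HBM by count. In WT, 9 of the 34 genes fell and 1 rose, against a background of 26.2% of all genes called (14.1% lower and 12.2% higher). The genes that fell were the glucose transporter gene Slc2a1, the enzyme genes Gpi1, Pfkp, Aldoa, Gapdh, Eno1 and Pkm, the oxygen-response gene Hif1a and the vasodilator peptide gene Adm. The gene that rose was Ndrg1, which is named for its regulation by N-myc. In HBM, 5 genes fell, namely Slc2a1, Pfkp, Eno1, Hif1a and Adm, and 3 rose, namely Ndrg1, Pfkfb4 and Ndufa4l2, against 26.5% of all genes (12.4% lower and 14.1% higher). The median log2 change was -0.61 over the 34 genes in WT and -0.02 over all genes. In HBM it was -0.21 and 0. In WT 18 of the 34 genes were lower on day 10 without overlap of the libraries and 2 were higher, against 16.3% and 17.3% of all genes. In HBM 4 were lower and 4 higher, against 19.6% and 18.9%. In HBM the number that fell was near the share of all genes, and without batch 18 edgeR called 0 of the 34 genes in WT and 1 in HBM, as detailed further on.

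**Figure D1:**
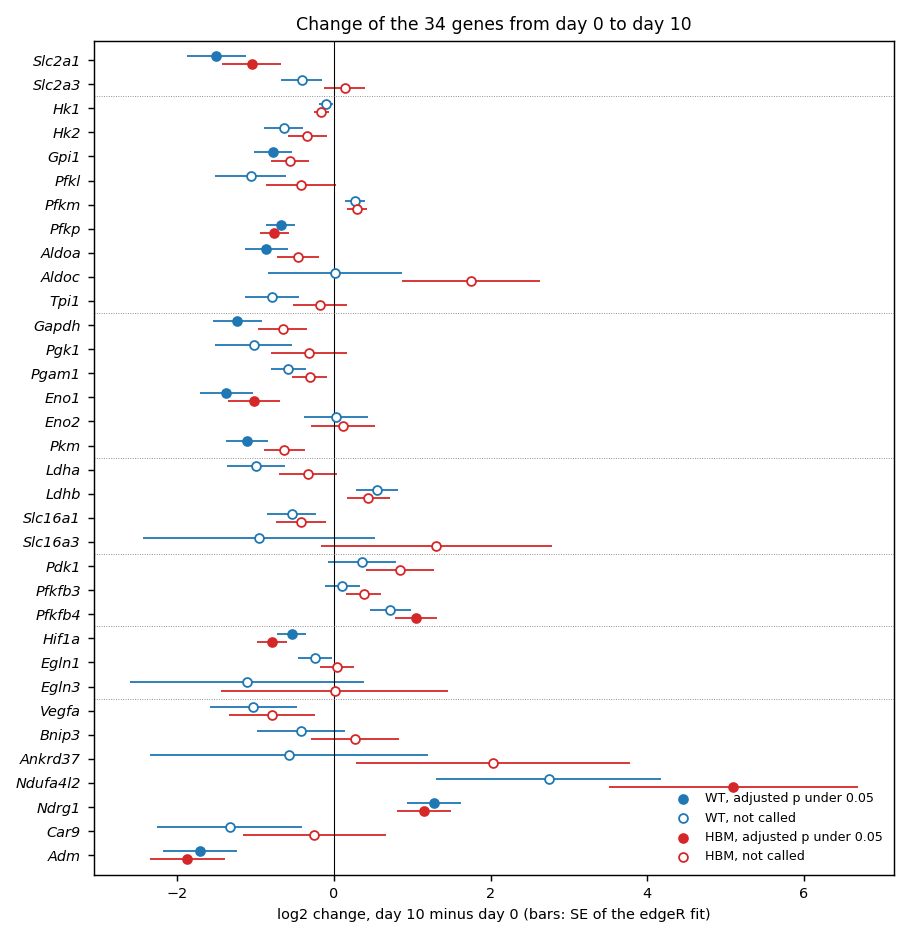
Log2 change from day 0 to day 10 for each of the 34 genes, WT in blue and HBM in red, with bars of 1 standard error and filled points where the adjusted p was under 0.05. Dotted lines part the roles. Most points of the enzyme genes lie below 0, with 25 of 34 genes below 0 in WT, while Ndrg1, Pfkfb4 and Ndufa4l2 lie above it.

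Slc2a1 (mm10 chr4:119108711-119137983, plus strand) encodes GLUT1, a widely expressed glucose transporter. In WT it was at 69, 39 and 45 CPM on day 0 and at 17.3, 15.4 and 21.5 CPM on day 10. In HBM it went from 71.8, 41 and 48.8 CPM to 17.9, 35.7 and 24.3 CPM. Levels on the 2 days did not overlap in either genotype, and the smallest drop was in the HBM culture of batch 19. The fall was 2.82-fold in WT (log2 -1.50, SE 0.379, adjusted p = 0.00778) and 2.07-fold in HBM (log2 -1.05, SE 0.374, adjusted p = 0.0447). The second transporter gene, Slc2a3 (GLUT3), stayed between 2.98 and 7.54 CPM in the 24 libraries and was not called in either genotype.

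Of the 9 genes of upper glycolysis, the steps from hexokinase to triose phosphate isomerase, 3 fell in WT and 1 in HBM. Pfkp, the platelet-type phosphofructokinase, went from 63.6, 46.8 and 35.3 CPM to 30.9, 28.1 and 32.2 CPM in WT, and from 66, 66.3 and 45.1 CPM to 30.7, 39.2 and 34.6 CPM in HBM. Every culture was lower on day 10, although the WT culture of batch 21 differed by only -0.13 on the log2 scale. The fall was 1.60-fold in WT (log2 -0.68, SE 0.188, adjusted p = 0.0137) and 1.70-fold in HBM (log2 -0.76, SE 0.188, adjusted p = 0.00658). Exons of Pfkp share 748 bases with those of Pitrm1 on the opposite strand, and reads of the pair cannot be told apart if strand was not used in the counting. Gpi1, glucose-6-phosphate isomerase, fell 1.71-fold in WT (328, 213 and 242 CPM to 143, 164 and 150 CPM, adjusted p = 0.0252). Aldoa, the main aldolase, fell 1.82-fold in WT (890, 657 and 667 CPM to 368, 395 and 454 CPM, adjusted p = 0.025). The WT days did not overlap for either gene. In HBM the log2 changes were -0.56 for Gpi1 (adjusted p = 0.0969) and -0.46 for Aldoa (adjusted p = 0.221), and the HBM culture of batch 19 was higher on day 10 for both, at 217 and then 252 CPM of Gpi1 and 529 and then 677 CPM of Aldoa. Hk1, the housekeeping hexokinase, varied least of the 34 genes over the 24 libraries, from 90.6 to 133 CPM, and its log2 change was -0.10 in WT (adjusted p = 0.453).

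Lower glycolysis held 3 of the 5 most abundant of these transcripts. Per kilobase of transcript the highest medians over the 24 libraries were those of Gapdh (396 CPM per kilobase), Aldoa (339), Ldha (293), Pkm (269) and Eno1 (162). Of the 6 genes of lower glycolysis 3 fell in WT and 1 in HBM. Eno1, the main enolase, went from 1080, 690 and 740 CPM to 280, 359 and 330 CPM in WT, a 2.59-fold fall (log2 -1.37, SE 0.334, adjusted p = 0.00599). In HBM it went from 1120, 596 and 849 CPM to 326, 627 and 313 CPM, a 2.02-fold fall (log2 -1.02, SE 0.331, adjusted p = 0.0302) in which the batch 19 culture did not take part. Gapdh, glyceraldehyde-3-phosphate dehydrogenase and a common reference gene, fell 2.35-fold in WT, from 1490, 1220 and 874 CPM to 495, 559 and 475 CPM (log2 -1.23, SE 0.317, adjusted p = 0.00854). In HBM Gapdh went from 1430, 994 and 947 CPM to 594, 1030 and 525 CPM (log2 -0.65, adjusted p = 0.136). Pkm, pyruvate kinase, fell 2.16-fold in WT, from 1410, 1060 and 1010 CPM to 485, 607 and 522 CPM (log2 -1.11, SE 0.266, adjusted p = 0.00558). In HBM it went from 1430, 1140 and 1230 CPM to 642, 1150 and 666 CPM (log2 -0.63, adjusted p = 0.0852). For these 3 enzymes the WT days did not overlap, whereas the HBM culture of batch 19 held its day 0 level. The genome holds 78 near-identical copies of Gapdh, whose counts came to 0.405 to 0.758% of those of Gapdh. Eno2, the neuronal enolase, stayed between 10 and 28.1 CPM.

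Hif1a fell in both genotypes, from 218, 111 and 177 CPM to 109, 124 and 114 CPM in WT (log2 -0.54, SE 0.186, adjusted p = 0.039) and from 243, 192 and 164 CPM to 118, 117 and 111 CPM in HBM (log2 -0.79, SE 0.187, adjusted p = 0.00491). The WT culture of batch 19 was the exception, at 111 and then 124 CPM. The WT call was lost in 12 of 18 alternative fits, among them edgeR with total count scaling (adjusted p = 0.056). The HBM call was lost in 2 of 18. Adm, which encodes adrenomedullin, went from 70.9, 109 and 113 CPM to 30.2, 16.8 and 42.8 CPM in WT, a 3.26-fold fall (adjusted p = 0.0131), and from 59.6, 90.9 and 115 CPM to 20.7, 15.3 and 36.5 CPM in HBM, a 3.67-fold fall (adjusted p = 0.00765). Adm, although a known hypoxia-induced gene, was lowest in batch 19 on day 10 in both genotypes, unlike the other hypoxia genes described further on.

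The genes that rose belong to flux control and to the wider hypoxia response. Ndrg1 (chr15:66929318-66969640, minus strand) was at 37, 18.6 and 47.3 CPM on day 0 and at 91, 79.9 and 78.7 CPM on day 10 in WT, a 2.42-fold rise (log2 1.28, SE 0.346, adjusted p = 0.0116). In HBM it went from 38.4, 15.9 and 27.7 CPM to 62.6, 71.8 and 47.9 CPM, a 2.22-fold rise (log2 1.15, SE 0.346, adjusted p = 0.0203). Pfkfb4 makes and degrades fructose-2,6-bisphosphate, the signal that sets phosphofructokinase activity. It rose 2.07-fold in HBM, from 7.64, 13.3 and 9.29 CPM to 14.3, 25.2 and 23.1 CPM (log2 1.05, SE 0.265, adjusted p = 0.00749), and in WT went from 8.11, 11.5 and 9.09 CPM to 13.2, 15.8 and 18.3 CPM (log2 0.72, adjusted p = 0.0518). For both genes the days did not overlap in either genotype. Ndufa4l2 encodes a mitochondrial protein known to be induced by HIF-1 and to lower respiration. In HBM it went from 3.19, 0.234 and 1.43 CPM to 36.8, 125 and 3.97 CPM (log2 5.10, SE 1.59, adjusted p = 0.0244), and in WT from 3.25, 0.739 and 1.75 CPM to 8.94, 27 and 2.77 CPM (log2 2.74, adjusted p = 0.169). Without batch 19 the HBM change was 3.13 (adjusted p = 0.0642), or 2.86 with each culture as its own control (adjusted p = 0.0108). It was higher on day 10 in all 6 cultures, by log2 9.07 in the HBM culture of batch 19 and by 0.66 in the WT culture of batch 21. Its exons share 32 bases with Shmt2 on the opposite strand.

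The remaining genes of upper glycolysis, flux control and oxygen response were not called by this test, in the fit without a culture term. Pfkl, the liver-type phosphofructokinase, ran from 45.1 to 156 CPM over the 24 libraries, Pfkfb3 from 26 to 60.1 CPM, the hydroxylase gene Egln1 from 43.3 to 90.6 CPM and the carbonic anhydrase gene Car9 from 0.877 to 17.4 CPM. Exons of Car9 share 214 bases with an antisense gene.

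Lactate genes were not called in either genotype by this test. Ldha went from 988, 888 and 778 CPM to 404, 513 and 421 CPM in WT (log2 -0.99, adjusted p = 0.0547) and from 986, 743 and 799 CPM to 522, 1050 and 444 CPM in HBM (log2 -0.33, adjusted p = 0.536). Slc16a1, which encodes the widely expressed lactate transporter MCT1, was lower on day 10 in 6 of 6 cultures, at 33.1 and then 26.6 CPM in the WT culture of batch 19. Ldhb was higher in 6 of 6.

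With each culture as its own control, 19 of the 34 genes were called in WT (16 lower and 3 higher, against 38.5% of all genes, 18.8% lower and 19.7% higher) and 14 in HBM (10 lower and 4 higher, against 38.2%, 17.7% lower and 20.5% higher). In WT this fit added the falls of Ldha (log2 -1, adjusted p = 0.00723), Slc16a1 (-0.55, 0.0055), Tpi1 (-0.79, 0.0234), Pgk1 (-1.04, 0.0388), Pgam1 (-0.59, 0.037), Hk2 (-0.68, 0.0269) and Vegfa (-1.10, 0.0363). It also added the rises of Pfkfb4 (0.71, 0.00096) and Ldhb (0.60, 0.0228). In HBM it added the falls of Gapdh, Gpi1, Pkm, Slc16a1 and Vegfa and the rise of Aldoc, the brain-type aldolase (log2 1.43, adjusted p = 0.00698). Without batch 18 the counts were lower. That batch had the highest level in 23 of the 34 genes on day 0 in each genotype. Without it, edgeR called 0 of the 34 genes in WT (794 of all genes) and 1 in HBM (1065 of all genes), and with the culture term 4 and 2. The share of all genes for the counts of 4 and 2 is not given.

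**Figure D2:**
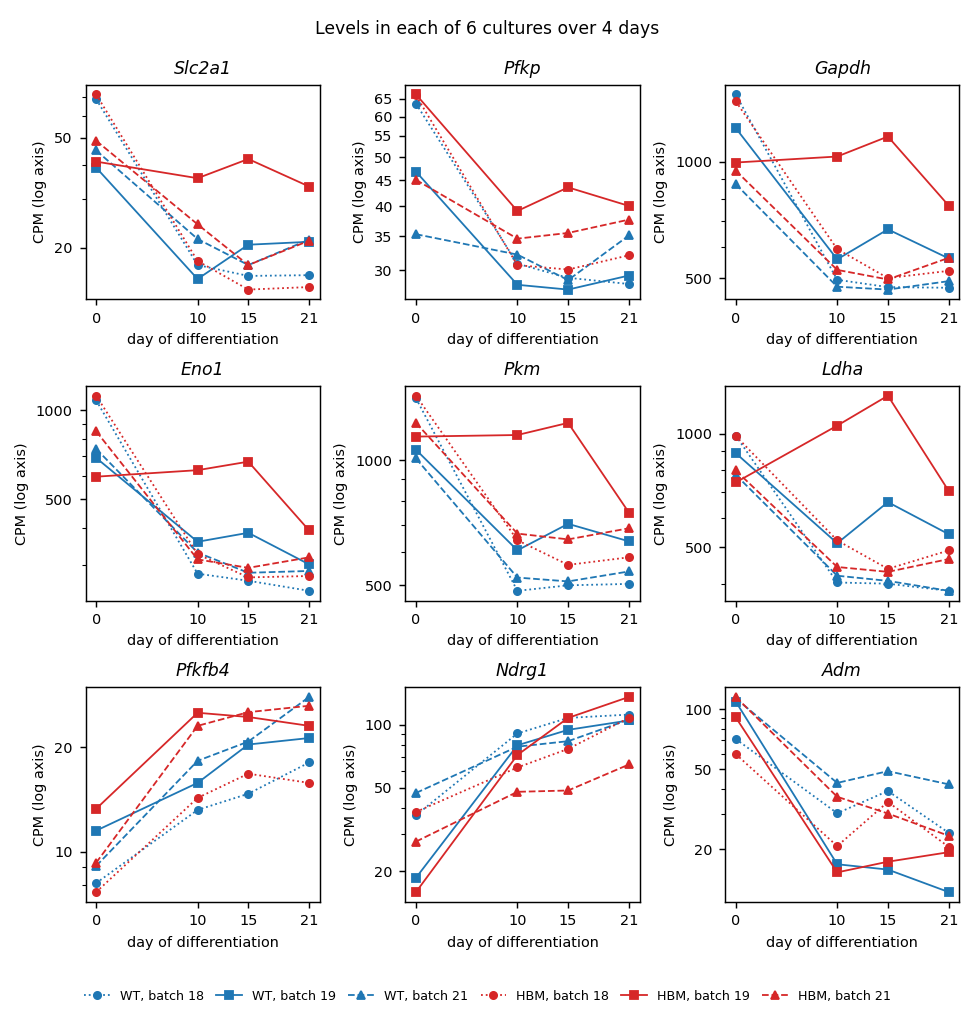
Levels of 9 genes in CPM on a log axis against the day of differentiation, 1 line per culture, WT in blue and HBM in red. Slc2a1, Pfkp, Gapdh, Eno1, Pkm, Ldha and Adm lie lower from day 10 in most cultures, the HBM culture of batch 19 keeps levels of Gapdh, Pkm and Ldha near or above those of day 0, and Pfkfb4 and Ndrg1 lie higher.

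The cultures did not all take this step alike. In WT 25, 21 and 28 of the 34 genes were lower on day 10 in batches 18, 19 and 21, with medians of -1.05, -0.12 and -0.58. In HBM 24 and 26 were lower in batches 18 and 21, with medians of -0.74 and -0.55, but 6 in batch 19, with a median of 0.43. Over all genes the median of each culture lay between -0.02 and 0.06. All 6 genes of lower glycolysis were higher on day 10 in the HBM culture of batch 19. Without batch 19, 15 genes were called in WT (14 lower, 1 higher), against 13.5% of all genes, and 12 in HBM (12 lower), against 15.9%. None of the 3 rises in HBM was called in that fit (Ndrg1 adjusted p = 0.101, Pfkfb4 0.0543, Ndufa4l2 0.0642). The genotype difference in this step was tested directly as an interaction. By edgeR 0 of the 34 genes were called (0 of all genes, 0%; members at an unadjusted p under 0.05, 0), by DESeq2 0, and with the culture term 0 (members at an unadjusted p under 0.05, 1). The unadjusted counts stand without the share of all genes and are not read as a result about the 34 genes. The interaction was above 0 for 28 genes, with a median of 0.38, which became 0.11 without batch 19.

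Markers of other cells moved in the same step. The 7 macrophage markers summed to 66.6, 51.1 and 1100 CPM on day 0 and 2470, 2660 and 7490 CPM on day 10 in WT, and 39.9, 110 and 896 CPM and then 1430, 3860 and 10000 CPM in HBM. The 6 adipocyte markers went from 25.5, 21.3 and 49.8 CPM to 421, 237 and 234 CPM in WT. The osteoblast markers, mostly Col1a1 by level, went from 22400, 33100 and 18200 CPM to 44900, 51100 and 29600 CPM in WT. In the WT culture of batch 21, 2 of these 6 markers were lower on day 10. The markers of dividing cells went from 411, 710 and 223 CPM to 209, 468 and 314 CPM in WT. Endothelial and muscle markers summed to at most 7.77 CPM in any library. The part of these cells in the changes of the 34 genes was not tested.

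Between day 10 and day 21 no change of these genes was called. By edgeR 0 of 34 genes passed in WT and 0 in HBM (0% of all genes in each; members at an unadjusted p under 0.05, 0 and 1), by DESeq2 0 and 0, and with the culture term 0 and 0, against 0.554% and 0.0964% of all genes. The unadjusted counts stand without the share of all genes and are not read as a result. Without overlap, 3 of the 34 genes were higher in WT on day 21 (Egln1, Ndrg1 and Pfkfb3) and 2 lower (Hk1 and Pfkm), against 6.41% and 6.97% of all genes. In HBM 0 were higher and 1 lower (Pfkm), against 4.6% and 7.02%. Ndrg1 in WT went from 91, 79.9 and 78.7 CPM on day 10 to 112, 105 and 106 CPM on day 21. The 34 genes together took 0.704% ± 0.152 (SD, n = 3) of all counts in WT on day 0, 0.378% ± 0.0273 on day 10, 0.398% ± 0.0654 on day 15 and 0.384% ± 0.0458 on day 21. In HBM these shares were 0.711% ± 0.166, 0.480% ± 0.148, 0.474% ± 0.21 and 0.422% ± 0.0887, with batch 19 highest on days 10, 15 and 21 at 0.65, 0.715 and 0.516%.

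The comparison of HBM with WT addresses whether the mutant osteoblasts express these genes at another level. By edgeR 0 of the 34 genes were called on any of the 4 days or after summing the counts of days 10 to 21 for each culture, in a background of 0% of all genes. DESeq2 also called 0 of them. At an unadjusted p under 0.05 there were 0, 2, 3 and 2 of them on days 0, 10, 15 and 21 and 3 after summing. These counts stand without the share of all genes and are not read as a result about the 34 genes. The median log2 difference of the 34 genes was 0.02 on day 0, 0.41 on day 10, 0.44 on day 15 and 0.25 on day 21, against -0.04, 0, -0.01 and -0.01 for all genes. On those days 18, 29, 30 and 28 of the 34 genes lay above 0. Scaling by total counts alone moved the median of all genes to -0.08, -0.14 and -0.11 on days 10, 15 and 21, and the medians of the 34 genes were then 0.31, 0.27 and 0.14.

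The differences were largest in batch 19. Within that batch the median was 0.81, 0.80 and 0.45 on days 10, 15 and 21, with 29, 32 and 30 genes higher in HBM. Within batch 18 it was 0.24, 0.04 and 0.13, with 27, 18 and 21 genes higher, and within batch 21 it was 0.08, 0.10 and 0.15, with 19, 24 and 25 genes higher. Without batch 19 the median of the fit was 0.14 on day 10, 0.08 on day 15 and 0.14 on day 21. Leaving out the HBM library of batch 19 alone gave 0.11 on day 10 and -0.13 on day 15. Batch 19 had the highest of the 3 HBM levels for 28, 30 and 27 of the 34 genes on days 10, 15 and 21, against 33.6, 33.3 and 30.9% of all genes. It was also highest in WT for 21, 23 and 23 genes, against 32.4, 34.1 and 32% of all genes. On day 0 the order was the other way, with batch 19 lowest for 20 genes in WT and 22 in HBM, against 37.3 and 34.1% of all genes.

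**Figure D3:**
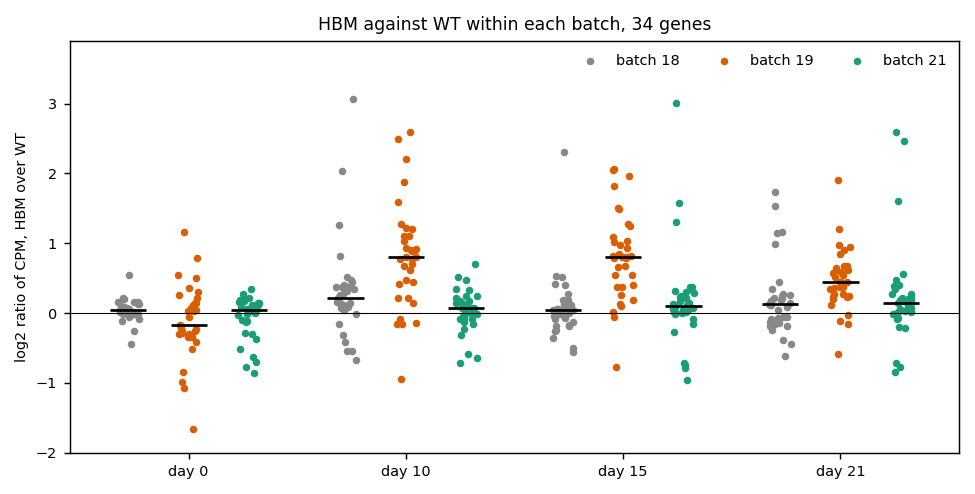
Log2 ratio of HBM to WT within each batch, 1 point per gene and 1 column per batch and day, with a black line at the median. On days 10, 15 and 21 the columns of batch 19 lie highest, with medians of 0.81, 0.80 and 0.45, while those of batches 18 and 21 lie at 0.04 to 0.24.

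Same-numbered WT and HBM libraries deviated together, with correlations over all genes of 0.542 to 0.815 in 12 pairs, so a fit with a batch term for each day was also made. It called 3 of the 34 genes higher in HBM on day 10, against 1.31% of all genes called (0.669% higher and 0.639% lower). On days 0, 15 and 21 it called 0 of them (members at an unadjusted p under 0.05, 2, 12 and 7, against 16.1, 12.5 and 13.8% of all genes), against adjusted calls of 0.127% of all genes on day 0 (0.0121% higher and 0.115% lower), 0.331% on day 15 (0.241% higher and 0.0904% lower) and 0.241% on day 21 (0.157% higher and 0.0844% lower). The 3 genes called on day 10 are known to be induced by hypoxia, but some other such genes were lower in HBM in most pairs. Ndrg1 was lower in HBM on day 10 without overlap, at 62.6, 71.8 and 47.9 CPM against 91, 79.9 and 78.7 CPM. Ndrg1, Adm and Car9 were each lower in HBM in 9 of the 12 pairs, day 0 included, and in 7, 7 and 6 of the 9 later pairs. Car9 was mixed. In batch 19 it was 2.15, 3.91 and 3.74-fold higher in HBM on days 10, 15 and 21. With the batch term for each day its log2 differences were 0, 0.39 and 0.49. Slc16a3 (chr11:120948480-120960868, plus strand), which encodes the lactate exporter MCT4, was at 14.9, 88.3 and 2.91 CPM in HBM and 1.79, 15.6 and 2.75 CPM in WT on day 10 (log2 2, SE 0.432, adjusted p = 0.0463). Ndufa4l2 was at 36.8, 125 and 3.97 CPM in HBM and 8.94, 27 and 2.77 CPM in WT (log2 1.72, SE 0.374, adjusted p = 0.0483). Ankrd37 (chr8:45996902-46005707, minus strand) was at 1.36, 7.55 and 0.141 CPM in HBM and 0.0259, 1.25 and 0.102 CPM in WT, which is 57, 257 and 6 reads against 1, 51 and 4 (log2 2.79, SE 0.473, adjusted p = 0.019). HBM and WT overlapped for all 3 genes, and HBM was higher in each of the 3 pairs. For Slc16a3 and Ndufa4l2 the ratio was smaller in batch 21 than in batches 18 and 19, and there Slc16a3 differed by 0.08 on the log2 scale. No single batch could be left out with the calls kept. Without batch 19 the values were 1.63, 1.41 and 3.25 for Slc16a3, Ndufa4l2 and Ankrd37 (adjusted p = 0.363, 0.328 and 0.27), without batch 18 they were 1.5, 1.51 and 2.28, and without batch 21 they were 2.73, 2.13 and 3.09. A single batch term for all days called 0 of the 34 genes, of 0% of all genes. Exons of Ankrd37 share 57 bases with Ufsp2 and 349 with Lrp2bp on the opposite strand.

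After summing days 10 to 21, the fit with a batch term called Ndufa4l2 (log2 1.72, adjusted p = 0.0271), Slc16a3 (1.81, 0.0309) and Egln3 (1.23, 0.0348) higher in HBM, against 2.36% of all genes called (1.4% higher and 0.959% lower). Egln3 was at 5.19, 1.27 and 2.16 CPM in HBM and 3.54, 0.568 and 2.2 CPM in WT on day 0. On day 15 it was at 0.329, 13 and 0.495 CPM in HBM and 0.418, 4.62 and 0.423 CPM in WT, and on day 21 at 0.632, 11 and 1.58 CPM and 0.218, 5.7 and 0.263 CPM. Between days 10 and 21 batch 19 was above both other batches in each genotype, and HBM was higher than WT in 8 of 9 pairs. Without batch 19 the adjusted p of these 3 genes was 0.0745, 0.121 and 0.202, with log2 differences of 1.65, 1.73 and 1.11. In the fit without a batch term, leaving out the HBM culture of batch 19 alone turned the direction, to -0.2 for Slc16a3 and -0.87 for Egln3.

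Several hypoxia genes were highest in batch 19 from day 10, though not Adm, which was lowest there in WT on days 10, 15 and 21. Slc16a3 ran from 1.23 to 107 CPM over the 24 libraries, Ndufa4l2 from 0.234 to 233 CPM and Ankrd37 from 0.0259 to 12.4 CPM, with the highest value of each in the HBM library of batch 19 on day 15. That library also had the highest level of Pgk1 (427 CPM, against 94.9 and 111 in the other HBM libraries of that day), Pdk1 (92, against 36.4 and 33.7) and Bnip3 (110, against 21.5 and 22.5). Pdk1 encodes a kinase that shuts pyruvate out of the mitochondrial citrate cycle, and Bnip3 a protein of mitochondrial clearance. Aldoc was there at 21.5 CPM, against 1.81 and 2.91. The WT library of batch 19 had the highest WT level of all of these genes on day 15, at 25.9, 55.6, 3.51, 175, 45.5, 46.2 and 7.6 CPM for Slc16a3, Ndufa4l2, Ankrd37, Pgk1, Pdk1, Bnip3 and Aldoc. On day 0 the same batch had the lowest Slc16a3 of each genotype (4.15 CPM in WT, 3.43 in HBM) and the lowest Ndufa4l2 (0.739 and 0.234).

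**Figure D4:**
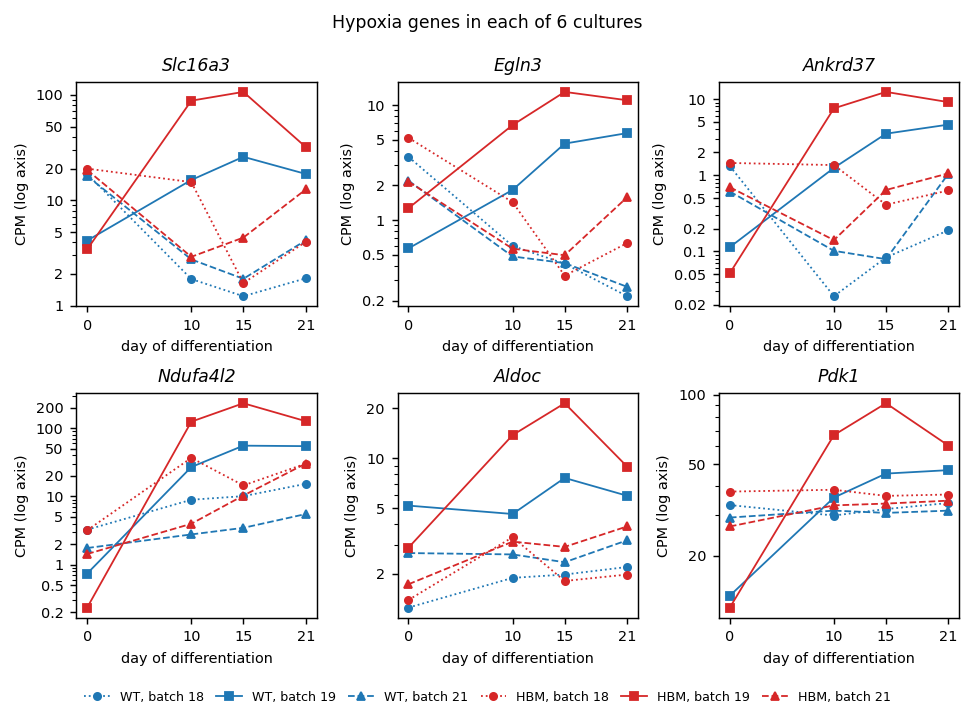
Levels of 6 hypoxia-related genes in CPM on a log axis against the day, 1 line per culture, WT in blue and HBM in red. From day 10 the HBM culture of batch 19 lies highest, for example 107 CPM of Slc16a3 on day 15 against 1.64 and 4.43 CPM in the other HBM cultures. The WT culture of batch 19 lies above most others, but on day 10 another HBM culture lies above it for Ndufa4l2 and Ankrd37.

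Ldhb (chr6:142490249-142507957, minus strand) encodes the heart-type subunit of lactate dehydrogenase and was lower in HBM. It was at 48.9, 42.7 and 55.4 CPM in WT and 36.5, 22.2 and 35.3 CPM in HBM on day 10. On day 15 it was at 46.7, 47.6 and 60.1 CPM and 38.9, 28 and 31 CPM, and on day 21 at 46.5, 46 and 55.8 CPM and 34.3, 30.4 and 32.8 CPM. WT and HBM did not overlap on these 3 days (5.71, 4.91 and 5.09% of all genes were lower without overlap), and HBM was lower in 12 of 12 pairs, which come from 3 pairs of cultures. The difference did not pass the test. On day 10 it was -0.64 (SE 0.27, adjusted p = 1), and with the batch term for each day -0.67 (SE 0.16, adjusted p = 0.0694). After summing with the batch term it was -0.63 (SE 0.1, adjusted p = 0.0523).

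As a share of lactate dehydrogenase reads per kilobase, Ldhb took 5.01% ± 2.42 (SD, n = 3) in WT on day 0 and 13.1% ± 2.64, 13% ± 3.88 and 13.6% ± 3.09 on days 10, 15 and 21. In HBM it took 3.60% ± 1.53 and then 7.06% ± 3.73, 7.5% ± 4.07 and 7.62% ± 1.81. Ldha supplied the rest. The share depends on the transcript length used, and in WT on day 10 it was 10% without division by length and 19% with the length of all exons. The lowest shares were those of the HBM culture of batch 19, at 2.8% on day 10 and 2.93% on day 15. The WT and HBM shares did not overlap on days 10 and 21, where the WT shares were 10.1% and above and the HBM shares 9.73% and below.

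**Figure D5:**
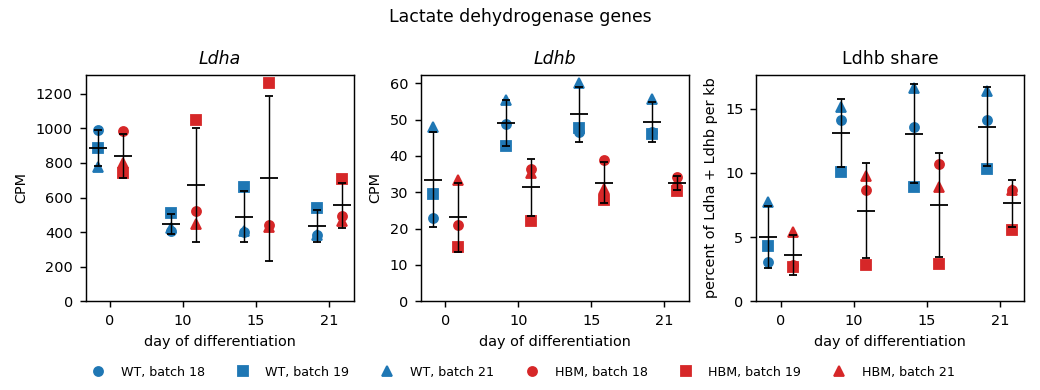
Ldha and Ldhb levels in CPM and the Ldhb share of lactate dehydrogenase reads per kilobase in percent, by day and genotype. Points are cultures, dashes are means and bars are 1 SD, and the WT share lies near 13% from day 10 where the HBM share lies between 7 and 8%.

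Other genes with a steady direction were Pkm and Hk2, higher in HBM in 12 of 12 pairs. These 12 pairs come from 3 pairs of cultures. The share of all genes with such agreement was not counted, here or for Ldhb. Pkm was at 642, 1150 and 666 CPM in HBM and 485, 607 and 522 CPM in WT on day 10, without overlap, and its log2 difference was 0.61 (SE 0.264, adjusted p = 1). Hk2, the inducible hexokinase, was at 15.5, 25.7 and 20.3 CPM in HBM and 11.4, 13.7 and 18.7 CPM in WT. Pfkm, the muscle-type phosphofructokinase, was lower in HBM in 11 of 12 pairs, while Hk1, Pfkp, Slc16a3, Vegfa and Ankrd37 were higher in 11 of 12. Without overlap between the genotypes, 2 of the 34 genes were higher in HBM on day 10 (Pkm and Slc2a3) and 3 lower (Ldhb, Ndrg1 and Pfkm), against 5.98% and 5.71% of all genes. On day 15 2 were higher (Pfkp and Slc2a3) and 1 lower (Ldhb), against 3.87% and 4.91%, and on day 21 1 was higher (Hk1) and 1 lower (Ldhb), against 4.29% and 5.09%. The numbers of higher and of lower genes were near these shares. On day 10 Pfkm was at 63.7, 62.2 and 62.9 CPM in HBM and 70.7, 69.2 and 67.2 CPM in WT. Vegfa, the vascular growth factor, was at 89.2, 149 and 41.1 CPM in HBM and 40, 80.2 and 29.7 CPM in WT on day 21 (with the batch term for each day log2 0.84, SE 0.194, adjusted p = 0.0909). None of the differences of Pkm, Hk2, Pfkm, Hk1, Pfkp and Vegfa passed the test, with or without a batch term.

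The make-up of the phosphofructokinases differed between day 0 and day 10, with no test of the shares. Per kilobase, the liver-type gene Pfkl made up 48.2% ± 9.06 (SD, n = 3) of the family in WT on day 0 and 31.9% ± 2.38 on day 10, while Pfkm went from 32.8% ± 9.08 to 52.1% ± 2.01. In HBM Pfkl went from 47.4% ± 12.6 to 41.8% ± 11.1 and Pfkm from 28.9% ± 6.34 to 42.2% ± 8.99. The HBM culture of batch 19 went the other way for Pfkl, from 33.1% on day 0 to 54% on day 10. Slc16a3 made up 75.4% of the 2 lactate transporter genes in that culture on day 10 and 6.84% in the WT culture of batch 18. Aldoa, Eno1, Slc2a1 and Hk1 were the main isoenzymes of their families in all 24 libraries.

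In the same HBM and WT libraries the osteoblast markers were higher in HBM for 6 of 6 genes on day 10 (median log2 1.18). Their summed level, mostly Col1a1, was 72700, 94100 and 43700 CPM in HBM against 44900, 51100 and 29600 in WT. The cartilage markers were lower for 7 of 7 (median -1.23, summed level 797, 1710 and 1700 CPM against 1100, 3860 and 4790). With the batch term for each day 3 of the 6 osteoblast markers were called higher and 1 of the 7 cartilage markers lower. Their part in the differences of the 34 genes was not tested.

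Genes of neighbouring pathways, from lists written with earlier results of these data known, gave a mixed picture in the step to day 10, in which 14.1% of all genes fell and 12.2% rose in WT and 12.4% fell and 14.1% rose in HBM. Many of the counts that follow are near these shares. Of 24 other hypoxia targets tested 6 fell and 1 rose in WT (median log2 -0.57), and 3 fell and 2 rose in HBM (median -0.07). The gene of the Myc antagonist Mxi1 rose by 0.75 on the log2 scale in WT (adjusted p = 0.0245) and by 0.84 in HBM (adjusted p = 0.0131). Of 12 genes of pyruvate entry into mitochondria 2 rose and 4 fell in WT, and 3 rose and 3 fell in HBM. Pdk2, a kinase that inhibits pyruvate dehydrogenase, rose by 0.96 (adjusted p = 0.000165), and Dlat, a subunit of that enzyme, fell by 0.47 (adjusted p = 0.000138). Of 8 pentose phosphate genes 3 fell in WT and 2 in HBM, Tigar by 0.80 in each (adjusted p = 0.00222 and 0.00209). Of 12 genes of glucose synthesis and glycogen 3 rose and 3 fell in WT, and 2 rose and 2 fell in HBM. The glycogen synthase gene Gys1 fell by 0.83 in WT and 0.84 in HBM, and the glycogen phosphorylase genes Pygb (in WT, log2 0.71) and Pygm (in HBM, log2 2.72) rose. Of 10 other isoenzymes 2 rose in WT and 3 in HBM, among them the pyruvate and lactate transporter gene Slc16a7 by 1.38 and 0.90. Of 7 other oxygen-sensing genes 1 rose in each genotype, namely Epas1, which encodes HIF-2 alpha, by 1.99 in WT and 2 in HBM (adjusted p = 0.00181 and 0.00182).

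Between the genotypes, 0 genes of these 6 lists were called by edgeR on day 10 or after summing. With the batch term after summing, 5 of the 24 other hypoxia targets were called higher in HBM and 0 lower, against 2.36% of all genes called. They were P4ha1, a collagen prolyl hydroxylase subunit (log2 1.14, adjusted p = 0.0351), Vldlr (1.15, 0.0353), Stc2 (1.72, 0.0359), Bhlhe40 (0.73, 0.0428) and Car12 (1.30, 0.0448). Arnt2, a partner of the HIF subunits, was called lower (-0.62, 0.0271), as was Pygb (-0.39, 0.0353). These named genes follow from the counts of 5 and fewer and were chosen after their values were seen. Within batch 19 the median log2 difference of the 24 other hypoxia targets was 0.47, 0.40 and 0.30 on days 10, 15 and 21. It was 0.20, 0.10 and 0.19 within batch 18 and 0.11, 0.14 and 0.26 within batch 21. Whether the calls of these lists hold without batch 19 was not examined.

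Genes with and without a promoter match were set side by side without a test. The 18 genes with a match had a median log2 change of -0.75 from day 0 to day 10 in WT and the 13 without had -0.68, with 16 and 8 of them below 0. In HBM the medians were -0.32 and -0.18, with 11 and 8 below 0. Between HBM and WT on day 10 the medians were 0.45 and 0.38. Within the lactate dehydrogenase pair, Ldha had matches and was lower on day 10 than on day 0 in 5 of 6 cultures, and Ldhb had none in its window and was higher in 6 of 6. The phosphofructokinases went the other way. Pfkm had a match in at least 1 promoter and was higher on day 10 in 4 of 6 cultures. Pfkl and Pfkp had none and were lower in 5 and 6 of 6.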

How the data were processed

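Per the submitters' processing notes, reads were trimmed with cutadapt 3.4, aligned to mm10 with STAR 2.7.8a and counted with featureCounts (Subread 2.0.1). The deposited values are raw read counts per gene, as the authors deposited them. The strand setting, annotation release and treatment of multi-mapping reads were not given in the sources used here. Of 54232 identifiers, 54164 matched GENCODE M21, and the other 68 held at most 0.00337% of a library's counts. A second identifier named Aldoa, with a mean count of 16.9, was not used. Library totals ran from 28039095 to 46987734, and TMM factors from 0.866 to 1.11.

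One model of 8 groups over 24 libraries was fitted with edgeR 4.0.16 (R 4.3.3), with filterByExpr, quasi-likelihood tests and Benjamini-Hochberg adjustment over 16592 genes, threshold 0.05. Counts of days 10 to 21 were also summed per culture (17728 genes). P-values of the model of 8 groups measure the spread of libraries within groups of 3, shared over all 24 libraries. A culture's 4 days are treated as separate samples unless a culture term is named. The summed counts hold 1 value per culture, so their p-values measure the spread between 3 pooled cultures per genotype. Fits with a batch term measure the spread left after the part shared by same-numbered WT and HBM libraries is taken out. Ratios within a batch needed at least 3 counts in both libraries, and log2 values of single libraries used a prior of 0.1 CPM. Levels per kilobase used the longest principal transcript. The tests were checked on simulated data. Alternatives were DESeq2 1.42.0, other scaling, no filter, libraries left out and batch terms. Leaving out whole batches, and the length of all exons, were chosen after seeing the data.

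Batch numbers paired the libraries. In 12 pairs, deviations of same-numbered libraries from their group means correlated at 0.542 to 0.815, and those of other numbers at up to 0.127. The deviations within a group sum to 0, so low values for other numbers follow in part from high values for the same number. They are not separate evidence of pairing. All 34 genes are named, with values in every library for those called, and genes of other lists by the lowest p in each direction, except 1 that is not reported here. The members and lists were chosen with earlier results of these data known.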

Additional observations from a re-analysis of the deposited data

Results flagged for a closer look

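Ndufa4l2 was lower in HBM than in WT in 3 of 3 pairs on day 0 and higher in 3 of 3 pairs on days 10, 15 and 21. The mean difference between HBM and WT was -0.295 CPM on day 0 and 42.4, 62.9 and 37.4 CPM on days 10, 15 and 21. Batch 19 made up most of the later values, and without it they were -0.19 CPM on day 0 and 14.5, 5.62 and 19.9 CPM. For day 10 the difference from day 0 was tested as an interaction by edgeR, with a log2 value of 2.36 (SE 1.97, adjusted p = 1) and of 1.99 with a culture term (SE 1.53, adjusted p = 0.72). For days 15 and 21 it was not tested. On day 0 the pairs differed by -0.02, -1.66 and -0.30 on the log2 scale in batches 18, 19 and 21, at levels of at most 3.25 CPM.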

How the results depend on the processing

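Of 18 calls of single genes, 324 alternatives kept 230, lost 94 and turned 0, and every call was lost in at least 1. Most often lost were the falls of Hif1a in WT (12 of 18 alternatives) and of Slc2a1 in HBM (10 of 18). For the WT change to day 10, 10 genes were called (26.2% of all genes), and 19 with a culture block for the pairing (38.5%). The count was 5 to 11 when 1 library was left out (6 without day 0 batch 18 and 5 without day 10 batch 19). It was 2 with only the 6 libraries compared. Without batch 18, edgeR called 0 (4 with the block), and without batch 19 it called 22 with the block. For HBM, 8 genes were called (26.5% of all genes), and 14 with the block (38.2%). The count was 5 to 9 when 1 library was left out and 3 with only 6 libraries. Without batch 18, edgeR called 1 in HBM (2 with the block), and without batch 19 it called 20 with the block. Between the genotypes, the paired fit called 3 genes on day 10 (1.31% of all genes) and 3 after summing (2.36%), where 0 were called without the pairing. After summing without batch 18 the paired fit called 5. The block changed no other count of the 34 genes. Counts given here without a share of all genes are not read as results about the 34 genes. After summing, the difference without the HBM culture of batch 19 turned to -0.2 for Slc16a3 and -0.87 for Egln3, and without the WT culture of batch 19 it was 3.76 and 3.29. The Ldhb share in WT on day 10 was 10% without length and 19% with all exons, against 13.1%. Over all genes, DESeq2 called 92 between the genotypes after summing, where edgeR called 0. The cause of these shifts was not tested beyond what the alternatives' construction shows. With 3 cultures per genotype, small differences between them were not detectable.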
